A study of Homo sapiens with 4 samples.

Results

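The comparison described here is that of SAF-A siRNA against control siRNA at 48 h after transfection, which uses 2 of the 4 libraries of the study. All 4 libraries came from RPE1, a human retinal pigment epithelial cell line immortalised with telomerase, and all cells had been transfected with 10 nM siRNA and Lipofectamine RNAi MAX. The groups were control siRNA for 24 h, SAF-A siRNA for 24 h, control siRNA for 48 h and SAF-A siRNA for 48 h, where control means a commercial negative control siRNA. Ribosomal RNA was removed from total RNA before sequencing in single-end reads of 50 bases. Each group held 1 library from 1 experiment, so no difference has a replicate check and no p-value is given. Genes were described where the spliced length was 300 nt or more and the mean of both 48 h libraries reached 20 FPKM, an expression level scaled by transcript length and library size, as it did for 3474 of 25027 gene symbols or unmatched identifiers.

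SAF-A, encoded by HNRNPU and also called hnRNP U, is an abundant nuclear RNA-binding protein that also binds chromatin and helps to organise it in interphase. It takes part in pre-mRNA splicing and in the attachment of several long noncoding RNAs to chromosomes, and it has been studied at the mitotic spindle. The siRNA is shown because its antisense strand can also pair through bases 2 to 8, its seed, with transcripts other than HNRNPU. Capitals mark the seed in the antisense strand and its match in the sense strand, both written 5′ to 3′ as DNA.
SAF-A siRNA sense strand: cctgggaatcgtggcggATATAATa
SAF-A siRNA antisense strand: tATTATATccgccacgattcccagg
The sense sequence matched GRCh37 perfectly at chr1:245018884-245018908 on the minus strand, inside exon 12 of the 14 exons of HNRNPU, and at no other place searched. The antisense sequence is its reverse complement, and 1 siRNA was used, so no second sequence against SAF-A stands beside it.

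The deposited values imply 28083822, 30701282 and 28586051 mapped reads for control 24 h, SAF-A 24 h and control 48 h, and 1216740 for SAF-A 48 h. A described gene rested on a median of 118 estimated reads in the SAF-A 48 h library, with quartiles of 65.8 and 228, and 24 genes rested on fewer than 10. Depth and siRNA at 48 h cannot be told apart, and the deposited 95% intervals, which are wider in the shallow library, hold only the uncertainty of each library's own estimate. Of 9 markers of differentiated retinal pigment epithelium, 7 were under 1 FPKM in every library and RPE65 and TTR were listed at 0 throughout, while VIM and LGALS1 stood at 1586 and 1059 FPKM or more in every library. Markers of blood cells, endothelium, glandular epithelium and hepatocytes were all under 1 FPKM in every library, and of 3 neuronal markers SYT1 alone was above, at 4.49 to 5.66 FPKM. Of 8 genes listed for the line, KRT19 was under 1 FPKM in every library. From control 48 h to SAF-A 48 h VIM rose from 1586 to 3312 FPKM and LGALS1 from 1059 to 3673. TFPI2 fell from 23.8 to 2.61 FPKM and KRT7 from 8.92 to 3.84, and CD44 stood at 59.8 and 54.3. The keratins KRT18 and KRT8 stood at 229 and 63.9 FPKM in control 48 h and at 23.3 and 15.4 FPKM in SAF-A 48 h, but their control estimates carry the status FAIL and a deposited interval that does not contain the value. HNRNPF and PTMA were the other two described genes of this kind, and none of the 4 could be called.

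A gene was called higher or lower at 48 h when log2(FPKM + 1) differed by 1 or more, a scale that understates changes of low genes, and the deposited 95% intervals did not overlap. By this rule 919 of the 3474 described genes (26.5%) were higher with SAF-A siRNA, 390 (11.2%) were lower and 2165 were neither. In the separate pair of libraries at 24 h, 5 of the same genes (0.144%) were higher and 3 (0.0864%) lower. The median log2 difference was 0.41 at 48 h, with an SD across genes of 1.08, against -0.04 with an SD of 0.23 at 24 h and 0.05 with an SD of 0.27 between the control libraries of 48 h and 24 h. The whole set was thus shifted upward at 48 h by 0.41, and after centring on that median 441 genes were higher and 633 lower. Rescaling to TPM, which fixes the sum of all levels in a library, over genes of 300 nt or more gave 637 and 529. Values below are on the scale as deposited and are to be read against the median of 0.41.

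**Figure D1:**
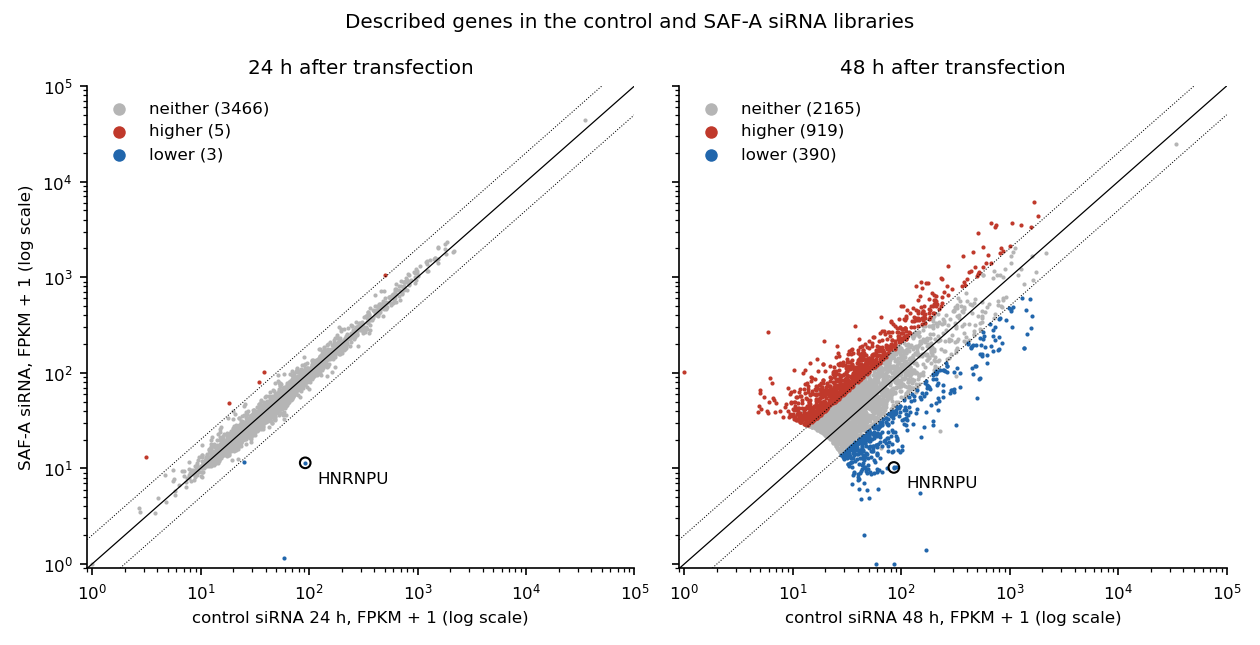
Each point is a described gene, with its level in the control library on the horizontal axis and in the SAF-A library on the vertical axis, both as FPKM + 1 on log scales. Dotted lines mark 2-fold differences and colours mark called genes. The cloud is narrow at 24 h, where 5 genes were higher and 3 lower, and wide at 48 h, where 919 were higher and 390 lower. HNRNPU lies far below the diagonal at both times.

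The choice of genes by their 48 h mean bears on these counts. Of the described genes, 2647 had 20 FPKM or more in both libraries, 515 had less than 20 FPKM in control and 312 had less in SAF-A. A gene of the last 2 kinds was described through its higher library alone, and 316 of the 515 were called higher and 191 of the 312 lower. When genes were instead chosen by a mean of 20 FPKM in the 24 h libraries, which holds no 48 h value, 619 of 3162 (19.6%) were higher and 546 (17.3%) lower, with a median of 0.12. Counts by this other choice are given beside several of the lists. At the edge of the rule, BIRC6 (mean 20.0058 FPKM) and PAXX (20.0056) were just inside and ANAPC1 (19.9971) and TBCE (19.9935) just outside, and their log2 differences were 0.55, -0.34, 0.00 and 1.19. By length, SCARNA7 and SCARNA10 (330 nt) were the shortest genes inside, and SCARNA5 (278 nt) and SCARNA13 (275 nt) the longest outside.

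HNRNPU (chr1:245013602-245027827, gene coordinates being those of GRCh37), the targeted gene, was low in both SAF-A libraries and in neither control. Its level was 91.2 and 10.4 FPKM with control and SAF-A siRNA at 24 h, and at 48 h it was 84.6 (80.4 to 88.7) and 9.24 (7.03 to 11.7), where the brackets hold the deposited interval. The 48 h level was 10.9% of control, and the interval bounds allow 7.92% to 14.5%. For the genes that follow, the 24 h values are given first and the control library comes before the SAF-A library at each time.

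Many genes of cell division were lower at 48 h. Of 50 genes for the mitotic spindle, kinetochore and checkpoint, 36 were described, 19 of these were lower, none was higher and the median log2 difference was -1.03, against 11.2% lower and 0.41 over all described genes. With genes chosen at 24 h, 24 of 41 were lower (17.3% of all genes by that choice), and of the 26 described members with under 1% of 50-base windows copied elsewhere in the genome 11 were lower (5.98% of all such genes). CCNA2 (chr4:122737599-122745088), the cyclin that drives S phase and G2, stood at 77.3 and 70.6 FPKM at 24 h, and at 48 h at 76.1 (72.3 to 79.8) and 17.7 (12.8 to 22.6). MAD2L1, a subunit of the spindle checkpoint, stood at 78.6 and 67.2 FPKM at 24 h and at 73.6 (70.7 to 76.5) and 9.01 (4.01 to 13.998) at 48 h, the last from about 13.5 reads. Both genes were low in the SAF-A 48 h library alone, their 48 h intervals lay apart, and their log2 differences were -2.04 and -2.90. CDK1, the kinase of mitotic entry, was at 93.9 (88.5 to 99.4) and 34.1 (25.8 to 45.7) FPKM at 48 h, and CKS2, a small protein that binds CDKs, at 197 (189 to 205) and 84.4 (58.1 to 111). BUB3, another checkpoint subunit, was not called and stood at 174 (165 to 184) and 198 (169 to 227) FPKM. The list's median at 24 h was -0.11, and in bulk RNA fewer cells in division and less of these transcripts per cell cannot be told apart.

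Some genes of DNA replication were lower as well. Of 48 replication and nucleotide supply genes 24 were described, 7 were lower (11.2% over all described genes) and none was higher, with a median of -0.57 at 48 h and -0.23 at 24 h. All 24 described members had a negative difference at 24 h, where none was called. Of the 13 members with under 1% copied windows 2 were lower (5.98% of all such genes). Of the other 11 members 5 were lower, against 249 of all 1114 described genes with 1% or more copied windows. RRM2 and FEN1, with 13.9% and 6.95% copied windows, are among those 11 members. RRM2, the regulated subunit of ribonucleotide reductase, fell from 62.2 (58.99 to 65.4) to 20.3 (15.5 to 25.6) FPKM at 48 h and was at 81.2 and 71.2 FPKM at 24 h. FEN1, the flap endonuclease that matures Okazaki fragments, fell from 81.5 (79.1 to 83.8) to 13.96 (9.21 to 18.7) FPKM. PCNA, the sliding clamp, stood at 193 (183 to 203) and 156 (133 to 179.6) FPKM and MCM7, part of the replicative helicase, at 115 (108 to 121) and 63.8 (54.7 to 74.1); neither was called as deposited, while MCM7 was called lower on the centred scale.

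Replication-dependent histone genes, whose mRNAs are made in S phase and end in a stem-loop in place of a poly(A) tail, showed the lowest median of the 27 lists. Of 65 genes 41 were described and 39 were lower at 48 h (11.2% over all described genes), with a median of -2.12. At 24 h the median was 0.16 and 37 of the 41 had a positive difference. H4C3 stood at 1560.3 and 2034 FPKM at 24 h, and at 48 h at 1422 (1389 to 1455) and 450.3 (361 to 539.8), so the SAF-A library was the highest of the 4 at 24 h and the lowest at 48 h. Many histone genes are near copies whose reads cannot be assigned with certainty, as for H4C15, all of whose 50-base windows occur elsewhere in the genome. H4C15 stood at 1367 (1335 to 1399) and 179.7 (124 to 236) FPKM at 48 h and H3C13, with 77.9% copied windows, at 494 (478 to 511) and 54.1 (27.4 to 80.9). The 13 described members of the list with under 1% of such windows, H4C3 among them, were all lower, with a median of -2.05. Over all described genes with under 1% copied windows 5.98% were lower. The histone genes H2BC8 and H2BC7, also with under 1%, were not matched to the list and are not among its described members. Both were lower, with log2 differences of -2.81 and -1.86. Other genes with a single exon are given with the sequence properties.

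Promoters of the mitotic genes were examined because they often carry the hexamer TTTGAA, known as the cell cycle genes homology region. Promoters of 300 bases, 250 upstream to 50 downstream of the start, were taken from RefSeq on GRCh38.p14 and matched 2889 described genes. TTTGAA, read on both strands, was present in 20 of 29 mitotic genes with a promoter. The median 48 h difference of those 20 was -1.03, and that of the mitotic genes without it was -1.15. TTTGAA was present in 19.1% of lower genes, in 16.5% of lower genes outside the matched histone list and in 5.86% of higher genes. Over described genes the share was 9.80%, and over all 27305 promoters it was 15.4%. The other planned form, TTCGAA, was present in 2 of the 29 mitotic genes. It was present in 0.96% of lower, 1.04% of higher and 1.77% of described genes and in 1.45% of all promoters. The pentamer CCAAT was present in 23 of the 29, in 51.3% of lower genes, in 35.4% of higher genes, in 40.1% of described genes and in 35.7% of all. Shown are 96 bases around the first TTTGAA, in capitals, from the 3 mitotic genes with under 1% copied windows whose 48 h intervals lay furthest apart among those with the hexamer.
CDK1 promoter, chr10:60778125-60778220, plus strand: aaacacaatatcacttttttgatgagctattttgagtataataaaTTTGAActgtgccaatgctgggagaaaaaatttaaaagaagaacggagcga
HMMR promoter, chr5:163460559-163460654, plus strand: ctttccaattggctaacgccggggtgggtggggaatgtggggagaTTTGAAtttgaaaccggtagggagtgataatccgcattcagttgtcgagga
TOP2A promoter, chr17:40418040-40418135, minus strand: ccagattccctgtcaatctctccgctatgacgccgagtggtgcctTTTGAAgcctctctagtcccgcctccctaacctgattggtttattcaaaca
The capitals begin 161, 28 and 194 bases upstream of the start site (positions -161, -28 and -194). HMMR, a spindle-associated receptor for hyaluronan, was at 39.9 (36.5 to 43.3) and 13.4 (9.18 to 19.3) FPKM at 48 h, and TOP2A, the topoisomerase of mitotic chromosomes, at 106 (105 to 108) and 50.7 (45.2 to 56.2). A match describes letters in this window and is not a measured binding site. The E2F heptamers TTCCCGC and TTGGCGC were present in 10.8% and 4.46% of lower genes and in 10.7% and 5.43% of described genes, and TTCCCGC was present in 8 of 21 replication genes.

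Most described genes of lysosomes and autophagy were higher at 48 h. Of 53 genes 42 were described, 27 were higher (26.5% over all described genes) and none was lower, with a median log2 difference of 1.21, the highest of the lists. With genes chosen at 24 h the count was 20 of 33 (19.6% of all genes by that choice), with a median of 1.15. CD63, a tetraspanin of late endosomes, stood at 677 and 729 FPKM at 24 h, and at 48 h at 731 (691 to 772) and 3322 (2995 to 3655). PSAP, the precursor of the saposins that help to degrade sphingolipids, stood at 383 and 353 FPKM at 24 h, and at 48 h at 569.9 (545 to 595) and 2054 (1955 to 2154). In these genes the SAF-A 48 h library stood above the other libraries, with log2 differences of 2.18 and 1.85. GRN, progranulin, rose from 39.7 (38.1 to 41.3) to 224 (205 to 243) FPKM at 48 h. The cathepsin and hydrolase genes CTSA, CTSB, CTSD, HEXA, GLB1 and ASAH1 and 7 subunits of the proton pump (ATP6V0B, ATP6V0D1, ATP6V0E1, ATP6V1C1, ATP6V1D, ATP6V1E1 and ATP6V1H) were among the called genes, while BECN1, ATG5 and GLA were not. The median at 24 h was -0.02, and the median of control 48 h minus control 24 h was 0.23.

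The palindrome CACGTG, an E-box present in many lysosomal promoters, was searched after these values were seen. It was present in 8 of 29 lysosomal genes with a promoter, in 13.2% of higher genes, in 9.55% of lower genes, in 10.8% of described genes and in 7.43% of all promoters. The 96 bases around the first CACGTG, in capitals, are given for 3 lysosomal genes chosen as above.
CD63 promoter, chr12:55729139-55729234, minus strand: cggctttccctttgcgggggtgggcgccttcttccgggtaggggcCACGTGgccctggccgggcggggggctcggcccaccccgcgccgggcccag
CTSA promoter, chr20:45891248-45891343, plus strand: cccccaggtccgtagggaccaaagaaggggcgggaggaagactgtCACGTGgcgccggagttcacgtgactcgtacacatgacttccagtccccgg
ATP6V0B promoter, chr1:43974858-43974953, plus strand: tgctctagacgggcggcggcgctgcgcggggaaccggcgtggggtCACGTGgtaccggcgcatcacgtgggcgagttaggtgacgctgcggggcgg
CTSA, the protective protein cathepsin A, rose from 35.04 (32.9 to 37.2) to 159 (142 to 178) FPKM at 48 h, and ATP6V0B, a subunit of the proton pump, from 119.7 (111 to 128) to 421 (368 to 475).

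**Figure D2:**
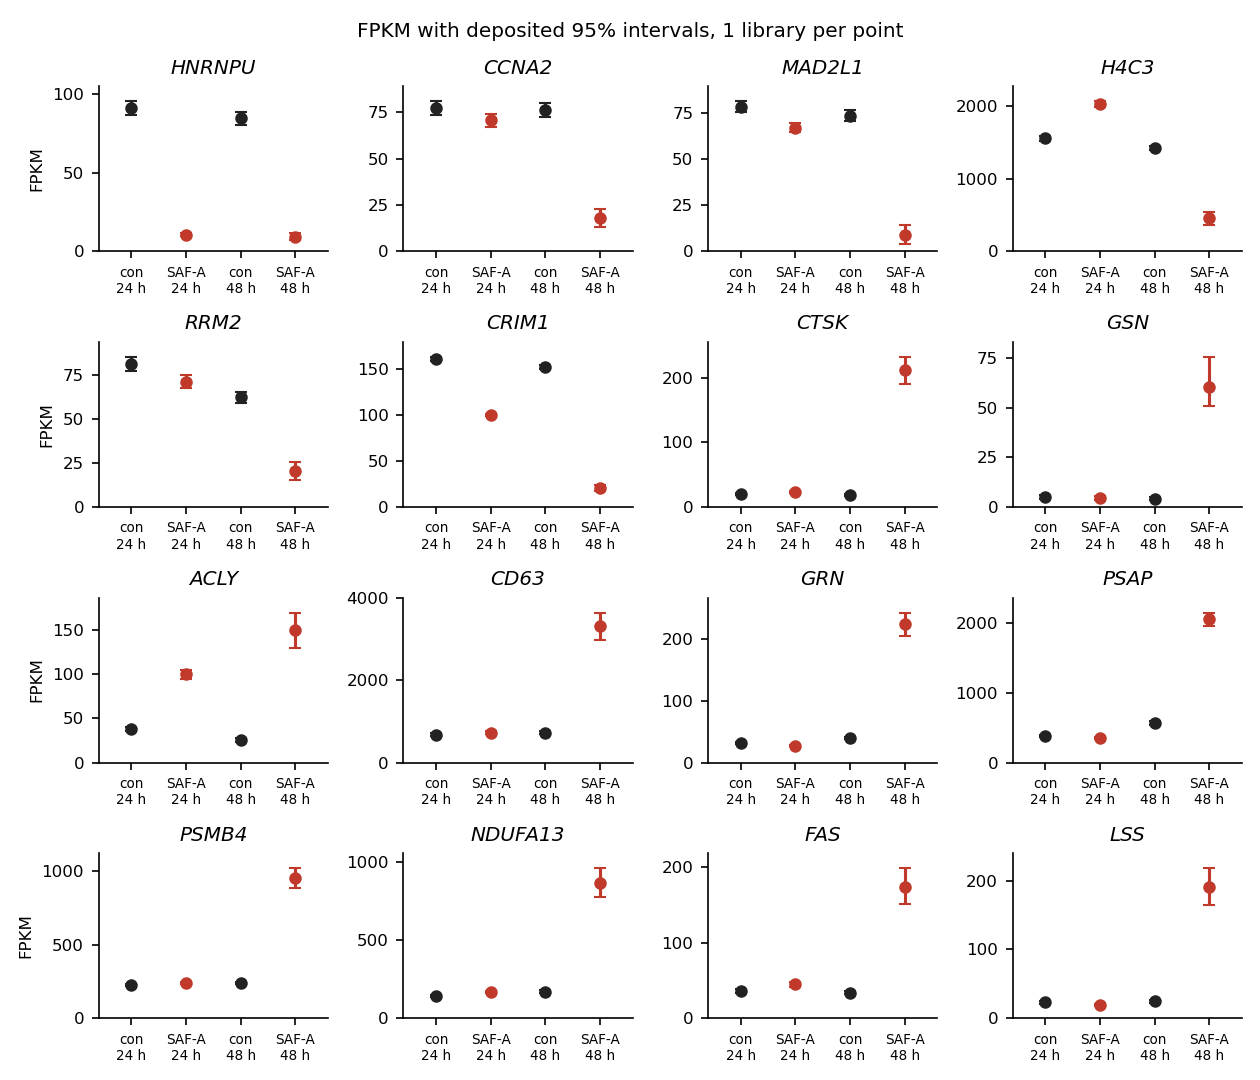
FPKM of 16 of the named genes in the 4 libraries is shown with deposited 95% intervals on linear axes from 0, with control libraries in black and SAF-A libraries in red. HNRNPU is low in both SAF-A libraries, whereas the genes from CTSK to LSS are high in the SAF-A 48 h library and CCNA2, MAD2L1, H4C3, RRM2 and CRIM1 are lowest there.

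Among 34 p53 target genes 19 were described, 9 were higher (26.5% over all described genes) and 1 was lower, with a median of 0.91 at 48 h and -0.02 at 24 h. With genes chosen at 24 h, 4 of 14 were higher, against 19.6% of all genes by that choice, and the median was 0.55. FAS, a death receptor, stood at 36.5 and 44.97 FPKM at 24 h, and at 48 h at 33.5 (31.6 to 35.7) and 173 (152 to 199). FUCA1, a lysosomal fucosidase, rose from 10.7 (9.84 to 11.6) to 66.6 (55.9 to 77.3) FPKM and BAX, a pro-apoptotic BCL2 relative, from 126 (113 to 139) to 351 (291 to 419.99). CDKN1A and MDM2, the best known targets, were not called: CDKN1A stood at 138 (129 to 147) and 261 (226 to 298) FPKM and MDM2 at 44.9 (42.5 to 47.3) and 35.2 (29.2 to 41.9). PLK2 was the called lower member, from 408 (390.5 to 425) to 202 (173 to 231) FPKM, and the call was lost against the control library of 24 h, where PLK2 stood at 283 FPKM and the log2 difference was -0.48.

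Many subunits of the proteasome and of the respiratory chain were higher. For the proteasome 17 of 34 described genes were higher (26.5% over all described genes) and 1 was lower, with a median of 1.01 at 48 h and 0.00 at 24 h. PSMB4, a subunit of the core particle, was at 225 and 243 FPKM at 24 h, and at 48 h at 237 (231 to 244) and 953 (886 to 1019). PSMA3 rose from 141 (134 to 149) to 571 (517 to 630.3) FPKM and PSMA7 from 199 (193 to 205) to 574 (525 to 622). Of 73 described genes of the respiratory chain and ATP synthase, 29 were higher and 5 lower, with a median of 0.89 at 48 h. NDUFA13, a subunit of complex I, stood at 141 and 169 FPKM at 24 h, and at 48 h at 169.5 (161 to 178) and 866 (773 to 958), and ATP5ME, a subunit of ATP synthase, at 271 (239.9 to 303) and 1318 (1144 to 1508) FPKM at 48 h. The lower members were CYCS, SDHD, ATP5MC1, NDUFA5 and UQCRFS1, and none of these had under 1% copied windows. All 40 described members with under 1% copied windows had a positive difference at 48 h, with 22 called higher. Of all 2356 described genes with under 1% copied windows 1776 had a positive difference and 32% were called higher.

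Counts in the secretory pathway lists are to be read against 26.5% higher genes and a median of 0.41 over all described genes. In the list for folding and translocation in the endoplasmic reticulum 15 of 38 were higher and 2 lower (median 0.59), and in that for vesicle coats, SNAREs and small GTPases 19 of 54 were higher and 1 was lower (median 0.56). CALR, the chaperone calreticulin, stood at 418 and 450.2 FPKM at 24 h, and at 48 h at 403 (397 to 408) and 961 (918 to 1004), a call that was lost on the centred scale. SEC61G, part of the translocation channel, rose from 232 (210.4 to 254) to 976 (856 to 1101) FPKM and ARF5, a GTPase of the Golgi, from 53.1 (50.2 to 55.96) to 206 (178 to 234). PDIA3, a protein disulfide isomerase, and ARF6, a GTPase of the plasma membrane, were lower, at 58.9 (55.9 to 61.8) and 8.94 (5.63 to 12.3) FPKM and at 51.5 (50.1 to 52.9) and 7.70 (5.07 to 10.3) FPKM. Of their 50-base windows 26.1% and 10.4% were copied elsewhere, and the processed pseudogene PDIA3P1 stood at 59.2 and 8.24 FPKM.

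Sterol and fatty acid synthesis genes held 10 higher and no lower member among 26 described (26.5% higher over all described genes), with a median of 0.83 at 48 h and -0.12 at 24 h. Among members chosen at 24 h, 6 of 18 were higher, against 19.6% of all, and the 48 h median was 0.65. LSS, the lanosterol synthase, stood at 23.2 and 19.6 FPKM at 24 h, and at 48 h at 24.6 (22.6 to 26.7) and 191 (164 to 218). ACLY, which makes cytosolic acetyl-CoA from citrate, stood at 37.9 and 100.1 FPKM at 24 h, and at 48 h at 25.7 (23.7 to 27.6) and 149.97 (129.9 to 170.03), and it was called higher at both times. ACAT2, which makes acetoacetyl-CoA, rose from 70.3 (66.2 to 74.3) to 251 (224 to 278) FPKM at 48 h. The synthase HMGCS1 and the epoxidase SQLE had log2 differences of 0.78 and -0.14 and were not called.

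Matrix, adhesion and contractile genes were mixed, and are to be read against 26.5% higher and 11.2% lower over all described genes. Of 35 described extracellular matrix genes 11 were higher and 3 lower, with a median of 0.62. SPARC, a secreted matrix glycoprotein, stood at 152 and 173 FPKM at 24 h, and at 48 h at 201 (198 to 204) and 652 (627 to 677), while COL8A1, a short-chain collagen, fell from 286 (273 to 299.5) to 65.8 (56.6 to 75.5) FPKM. P4HA2, a collagen prolyl hydroxylase, rose from 12.97 (11.2 to 14.7) to 66.1 (48.98 to 84.1) FPKM. Among 16 described targets of YAP and SRF 3 were higher and 5 lower. CRIM1, ANKRD1 and CCN2, known as YAP targets, were lower. CRIM1 fell from 153 (151 to 155) to 20.5 (16.99 to 24.1) FPKM, ANKRD1 from 480.4 (474 to 487) to 116 (101 to 131) and CCN2 from 93.04 (90.6 to 95.5) to 14.6 (9.84 to 19.4). ACTA2, smooth muscle actin, rose from 11.4 (9.43 to 13.3) to 97.6 (73.1 to 122) FPKM, and TAGLN, transgelin, from 181 (171 to 191) to 365 (319 to 410.1), a call that was lost under each rescaling and against the control library of 24 h. With genes chosen at 24 h, 1 of 18 targets was higher and 8 were lower, against 19.6% and 17.3% of all. In the actin and focal adhesion list 13 of 44 were higher and 4 lower, with a median of 0.38 that became -0.03 on the centred scale. S100A6, a calcium-binding protein, rose from 665 (651 to 679) to 3727 (3567 to 3887) FPKM and ANXA5, annexin A5, from 368 (361 to 374) to 1669 (1606 to 1732), and the caveolar genes CAV1 and CAVIN1 were lower, with log2 differences of -1.28 and -1.44.

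Neither the hnRNP family, to which SAF-A belongs, nor the SR protein list held a higher gene, against 26.5% higher over all described genes. Of 18 described genes of the hnRNP family, HNRNPU not included, 5 were lower (11.2% over all described genes) and none was higher, with a median of -0.74 at 48 h and -0.18 at 24 h. HNRNPA1 stood at 91.7 and 80.3 FPKM at 24 h, and at 48 h at 90.7 (84.5 to 96.999) and 18.7 (7.24 to 30.1), and HNRNPC at 181 (172 to 190.3) and 69.6 (60.4 to 80.5) FPKM at 48 h. Both have many processed copies, with 78.7% and 32.1% of their windows copied. The 7 described members with under 1% copied windows had a median of -0.25, against 0.59 over all such genes. None of the 7 members was called. One of them, HNRNPF, could not be called because of its status FAIL. It stood at 136 and 61.9 FPKM at 48 h, a log2 difference of -1.12. HNRNPUL1, a paralog of SAF-A, stood at 25.4 (23.4 to 27.4) and 21.3 (13.6 to 28.96) FPKM. Of 34 described SR protein and spliceosome genes 4 were lower, SNRPD1, SRSF10, SRSF6 and SRSF3, a share near the 11.2% over all described genes, and none was higher. None of these 4 had under 1% copied windows, and the 17 members that did had a median of 0.29, against -0.09 for the list. Over all described genes with under 1% copied windows the median was 0.59. SRSF3, the smallest SR protein, fell from 118 (112 to 124) to 42.5 (30.8 to 54.2) FPKM. Among 15 described nuclear long noncoding RNAs and host genes of small nucleolar RNAs 2 were higher and 2 lower (26.5% and 11.2% over all described genes). SNHG3 stood at 41.3 (38.1 to 44.6) and 3.84 (1.29 to 7.19) FPKM, the last from about 10.02 reads, and SNHG6 at 182 (169.6 to 194) and 457 (379 to 535), a call lost on the centred scale. RPPH1, the RNA of ribonuclease P and the most abundant described gene, stood at 34172 (33984 to 34360.00) and 24614 (23846 to 25382) FPKM and MALAT1, a nuclear speckle RNA, at 59.2 (58.2 to 60.2) and 31.7 (28.2 to 35.2), and neither was called.

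For ribosomal proteins the counts went with copied sequence. Of 78 described genes 10 were higher and 18 lower (26.5% and 11.2% over all described genes), with a median of -0.57 at 48 h and 0.15 at 24 h, and a median of 28.4% of their 50-base windows occurred elsewhere. The 5 with under 1% copied windows had a median of 1.27, and 4 of them were higher. Over all described genes with under 1% copied windows the median was 0.59 and 32% were higher. RPS21 stood at 443 and 527 FPKM at 24 h, and at 48 h at 512 (492 to 531) and 2918 (2692 to 3143), and RPL38 at 750.1 (709 to 791) and 3519.8 (3072 to 3968) FPKM at 48 h. RPL37A, the ribosomal protein gene of highest mean FPKM at 48 h, rose from 1671 (1637 to 1704) to 6113 (5807 to 6419.9) FPKM. Promoter sequences of 42 of 62 ribosomal protein genes began with a C and 4 pyrimidines at the start site, the form of a 5′ terminal oligopyrimidine tract, against 4.04% of all promoters. Of the cytosolic chaperones 10 of 30 described were lower and 3 higher (median -0.28). The 10 with under 1% copied windows had a median of 0.48, below the 0.59 over all such genes. HSPA8, HSPD1 and HSP90AB1, with 21.3%, 39.9% and 20.6% of windows copied, fell from 1069 (1024 to 1114) to 482 (449 to 516), from 306 (292 to 321) to 66.6 (55.9 to 78.1) and from 348 (332 to 365) to 99.4 (86.1 to 115) FPKM. The chromatin architecture list held 12 lower and 2 higher genes of 32 (median -0.70). Its 15 members with under 1% copied windows had a median of 0.13, also below the 0.59 over all such genes. H2AX, the histone variant of DNA damage foci, is one with under 1% copied windows that was lower, at 38.7 (36.7 to 40.7) and 7.10 (2.99 to 11.2) FPKM, and the cohesin genes STAG1 and STAG2 were the higher ones. NPM1, a nucleolar histone chaperone, and HMGN2, a nucleosome-binding protein, were also lower, at 595 (565 to 625) and 187 (145 to 229) FPKM and at 39.1 (37.4 to 40.9) and 6.48 (3.0001 to 9.97) FPKM, with 68.9% and 47.4% of windows copied. In the list for lamina, pores and import 5 of 30 were lower and 1, LMNA, was higher. Of 33 members chosen at 24 h 9 were lower (17.3% of all). Of the 21 described members with under 1% copied windows 1 was lower (5.98% of all such genes). LMNA, which encodes lamins A and C, stood at 296 (280.2 to 312) and 744 (668 to 822) FPKM, a call lost on the centred scale. RAN, the GTPase of nuclear transport, fell from 534 (525 to 544) to 155 (131 to 179) FPKM, and TMPO, a lamina-associated protein, from 83.5 (78.97 to 88.003) to 14.4 (8.75 to 20.4). The lamin LMNB1, which has under 1% copied windows, fell from 83.8 (78.8 to 88.9) to 22.9 (15.9 to 30.3) FPKM.

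Glycolysis genes were mixed, with 2 of 17 described higher and 4 lower (26.5% and 11.2% over all described genes) and a median of 0.33 that became -0.08 on the centred scale. GAPDH fell from 1526 (1459 to 1593) to 592 (531 to 653) FPKM and PGAM1 from 220.3 (216 to 225) to 49.6 (39.2 to 60.1), with 23.3% and 94.3% of windows copied, and PKM rose from 817 (780.5 to 853) to 1800.4 (1683 to 1920.3), a call lost when rescaled to TPM over genes of 300 nt or more and on the centred scale. Among 35 translation factors 5 were higher, all of them subunits of initiation factor 3, and 8 lower, with a median of 0.18 that became -0.05 and -0.23 under rescaling and centring. EIF1AX fell from 44.3 (43.1 to 45.5) to 6.03 (3.86 to 8.19) FPKM, and 50.8% of its windows were copied. The elongation factor EEF2 stood at 764 (758 to 769.9) and 1047 (1013 to 1081) FPKM and EEF1A1 at 2163 (2153 to 2172) and 1784 (1741 to 1826), and neither was called. In the oxidative stress and iron list 8 of 33 were higher and 3 lower, with a median of 0.15 that became -0.09 and -0.26 under rescaling and centring. PRDX5, a peroxiredoxin, rose from 97.6 (89.9 to 106) to 499 (425 to 576) FPKM and HMOX1, haem oxygenase, had a log2 difference of 1.51.

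Stress and signalling lists were small, and their counts are to be read against 26.5% higher and 11.2% lower over all described genes. Of 28 described ATF4 targets and tRNA synthetases 6 were higher and 4 lower, and the median of 0.34 became -0.07 on the centred scale. DDIT4, an inhibitor of mTORC1, rose from 26.3 (24.7 to 27.8) to 126 (109.7 to 143) FPKM and SLC7A5, an amino acid transporter, fell from 44.8 (43.6 to 46.04) to 11.3 (8.30 to 14.2). Of 45 interferon-stimulated genes only 11 were described, 3 of them higher (B2M, STAT2 and IFI6) and none lower, and the median of 0.37 became -0.04 on the centred scale. STAT2 passed the level minimum through its SAF-A value, being at 16.2 (14.9 to 17.6) in the control. By the choice at 24 h 1 of 7 was higher. The call of B2M, at 569 (559 to 579.6) and 1289.99 (1216 to 1364) FPKM, was lost there too. Among 8 described NF-kB genes SOD2, the mitochondrial superoxide dismutase, rose from 25.7 (22.6 to 29.02) to 119 (88.5 to 151) FPKM and LIF, a cytokine, fell from 48.3 (45.8 to 50.8) to 8.94 (3.91 to 13.98), and the median of 0.31 became -0.10 on the centred scale. Of 10 described genes for TGF-beta, BMP and WNT feedback and growth factors 3 were higher and 2 lower. VEGFC, a lymphatic growth factor, rose from 7.76 (6.996 to 8.51) to 45.9 (36.9 to 54.9) FPKM, and FGF2, basic fibroblast growth factor, fell from 48.5 (46.2 to 50.7) to 9.90 (7.58 to 12.2). With genes chosen at 24 h, 2 of 15 were higher and 7 lower, and the median of 0.58 became -0.15.

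**Figure D3:**
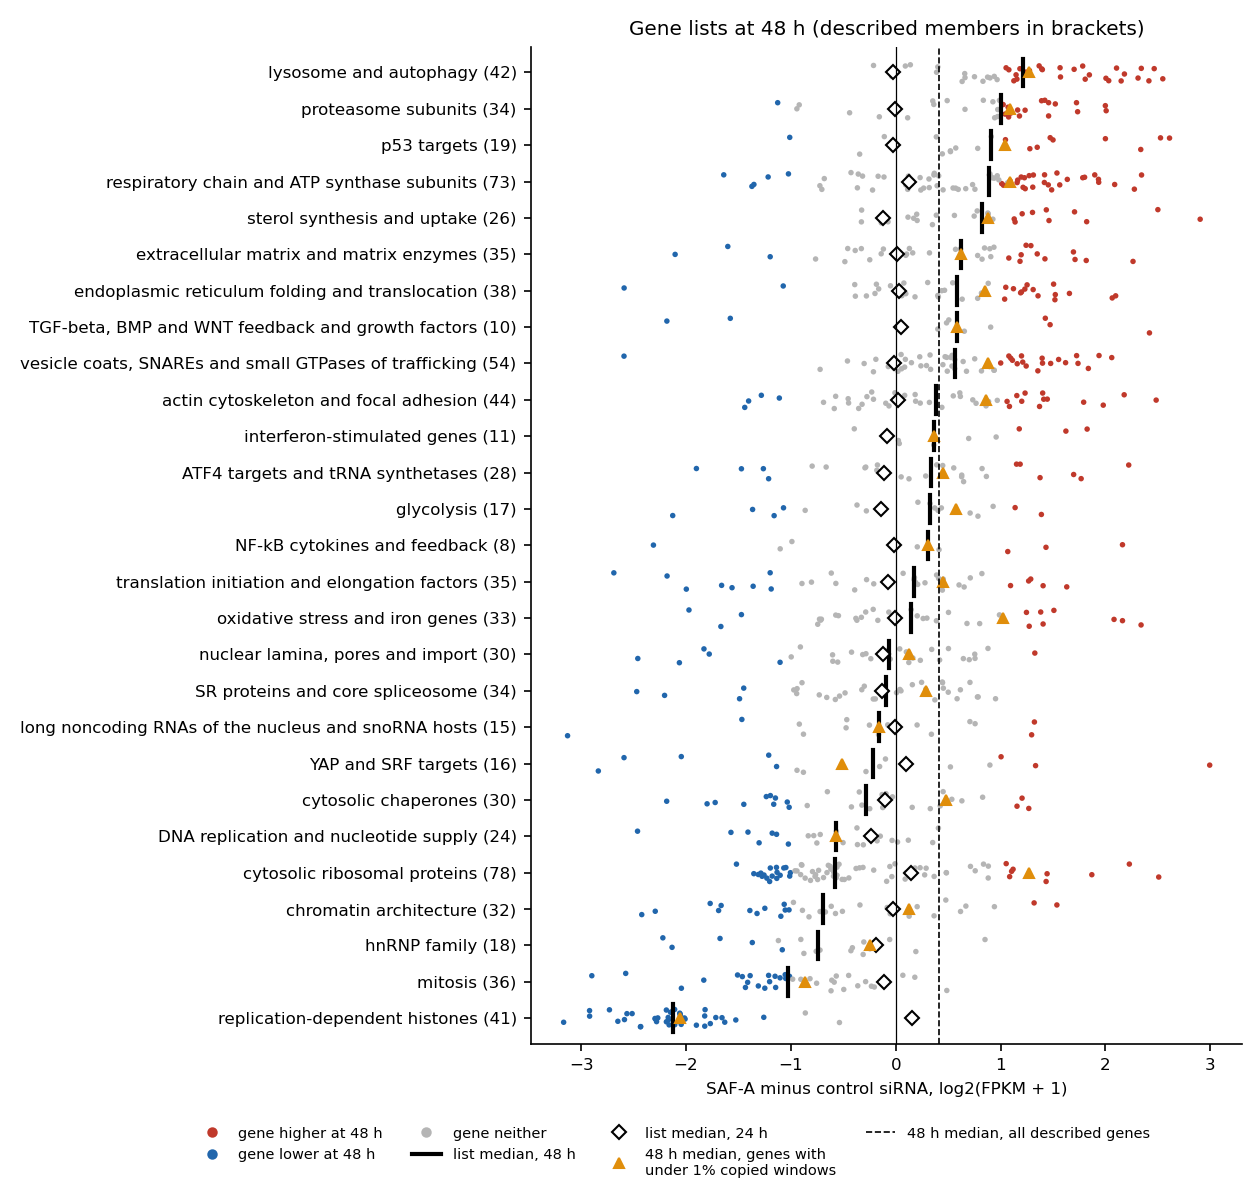
Each point is a described gene of a list, placed by its log2 difference at 48 h and coloured by its call. Black bars are list medians at 48 h, diamonds those at 24 h, triangles the 48 h medians of members with under 1% copied windows, and the dashed line the median of 0.41 over all described genes. The triangles are to be read against 0.59, the median over all described genes with under 1% copied windows. Histone and mitotic genes lie lowest and lysosomal genes highest at 48 h, while the 24 h medians lie between -0.23 and 0.16. The 48 h medians of the actin, ATF4, glycolysis, interferon, NF-kB, oxidative stress and translation lists lie above 0 as deposited and below 0 when centred on the dashed line.

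The genes with the largest changes were ranked by the gap between their 48 h intervals. All higher genes named in this paragraph were under 20 FPKM in control 48 h and passed the level minimum through their SAF-A value. CTSK (chr1:150768684-150780917), the lysosomal collagenase cathepsin K, stood at 19.9 and 22.9 FPKM at 24 h, and at 48 h at 18.5 (17.2 to 19.8) and 212 (192 to 233). GSN (chr9:124030380-124095120), the actin-severing protein gelsolin, stood at 4.77 and 4.32 FPKM at 24 h, and at 48 h at 4.03 (3.26 to 5.03) and 60.4 (50.9 to 75.8). The SAF-A 48 h library was the highest of the 4 in both, with log2 differences of 3.45 and 3.61 at 48 h. HSD17B14, a steroid dehydrogenase, rose from 3.996 (3.26 to 4.73) to 65.2 (50.7 to 79.8) FPKM, AMDHD2, of amino sugar metabolism, from 9.30 (8.24 to 10.4) to 107 (88.9 to 126), and CACNA2D1, a calcium channel subunit, from 3.86 (3.47 to 4.24) to 43.6 (37.2 to 50.01). MGST3, a microsomal glutathione transferase, rose from 15.8 (14.5 to 17.1) to 138 (119 to 156) FPKM, and FBXL2, EFR3A and the pseudogene WFDC21P had log2 differences of 3.06, 2.94 and 3.59. At 24 h CACNA2D1 and EFR3A had log2 differences of 0.58 and 0.77, and neither was called.

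Lower genes of the same ranking included CRIM1 (chr2:36583370-36778278), which was also the lower of the pair at 24 h (162 and 100.2 FPKM), and NCEH1 (chr3:172348435-172429008), a cholesteryl ester hydrolase, at 65.9 and 52.04 FPKM at 24 h and 60.7 (57.7 to 63.9) and 5.04 (2.62 to 8.77) at 48 h. Neither has copied windows, and their log2 differences at 48 h were -2.84 and -3.35. NCEH1, GJA1, IGF2BP3, PNMA2 and VDAC1 were under 20 FPKM in SAF-A 48 h and passed the level minimum through their control value. GJA1 (chr6:121756745-121770873), the gap junction protein connexin 43, fell from 88.6 (86.5 to 90.7) to 9.41 (6.13 to 12.7) FPKM, IGF2BP3, an RNA-binding protein, from 47.6 (46.3 to 48.9) to 4.88 (2.84 to 6.93), and PNMA2 from 49.2 (47.9 to 50.4) to 3.94 (2.24 to 5.64), with 18.2%, 18.005% and 3.86% of windows copied. VDAC1, the mitochondrial outer membrane channel, stood at 141 and 121 FPKM at 24 h, and at 48 h at 147 (140.1 to 154) and 4.56 (0.656 to 8.46), the last from about 9.94 reads, and 36.6% of its windows were copied.

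Several of the largest differences lay in genes that share their exons with a neighbour or copy, and the assignment of their reads is uncertain. The readthrough gene URGCP-MRPS24 was listed at 0 in control 48 h (upper bound 0.110 FPKM) and at 101 (73.3 to 129) FPKM in SAF-A 48 h, whereas MRPS24 itself stood at 101 and 169.5 FPKM and URGCP at 16.8 and 10.7. NME1-NME2 rose from 4.93 (3.41 to 6.45) to 264 (225 to 304) FPKM while NME2 went from 526 to 87.8 and NME1 from 376 to 492. In the other direction RPL36A-HNRNPH2 went from 44.2 (41.7 to 46.7) to 1.01 (0 to 3.48) FPKM, and HNRNPH2 from 5.02 to 16.8. The pseudogenes RPL13AP5 and RPL21P28 stood at 27.5 (8.25 to 46.7) and 0.389 (0 to 4.98) FPKM in SAF-A 48 h against 322 (304 to 341) and 168 (156 to 180.1) in control, with 75.7% and 100% of windows copied. The values of all these genes are uncertain and no fold is given where a library held 3 reads or fewer, and the use of strand and of reads with several alignments is not given in the sources used here.

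Copied sequence went with the 48 h difference across all described genes. The share of a gene's 50-base windows, the read length, that occurs elsewhere in GRCh37 had a Spearman correlation of -0.35 with the log2 difference at 48 h and of 0.05 at 24 h over 3470 genes, which share both libraries. The 2052 genes without a copied window had a median of 0.63, the 171 with 20 to 50% one of -0.83 and the 109 with over 50% one of -0.90, and at 24 h the 3 medians lay between -0.04 and 0.01. Of the 2356 genes with under 1% copied windows 754 (32%) were higher and 141 (5.98%) lower, so these held 754 of the 919 higher genes and 141 of the 390 lower ones. Among them exon number went with the difference as well. The median was -1.34 for 41 genes of 1 exon, -0.53 for 54 of 2 exons, 0.41 for 3 to 5 exons and 0.63 to 0.73 over the classes of 6 or more. Without the matched members of the histone list, the 28 single-exon genes left had a median of -0.93, and 12 were lower and 2 higher. Among the 12 were the histone genes H2BC8, H2BC7 and H2AX, with log2 differences of -2.81, -1.86 and -2.29. JUN, an immediate early transcription factor with 1 exon, fell from 69.998 (68.2 to 71.8) to 18.7 (14.2 to 23.2) FPKM, RHOB, a small GTPase, from 61.8 (59.8 to 63.8) to 8.74 (5.08 to 12.4), and TERC, the telomerase RNA, from 153 (144 to 163) to 59.9 (31.6 to 88.1). The part of copied sequence, exon number and depth in the differences of single genes was not tested.

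**Figure D4:**
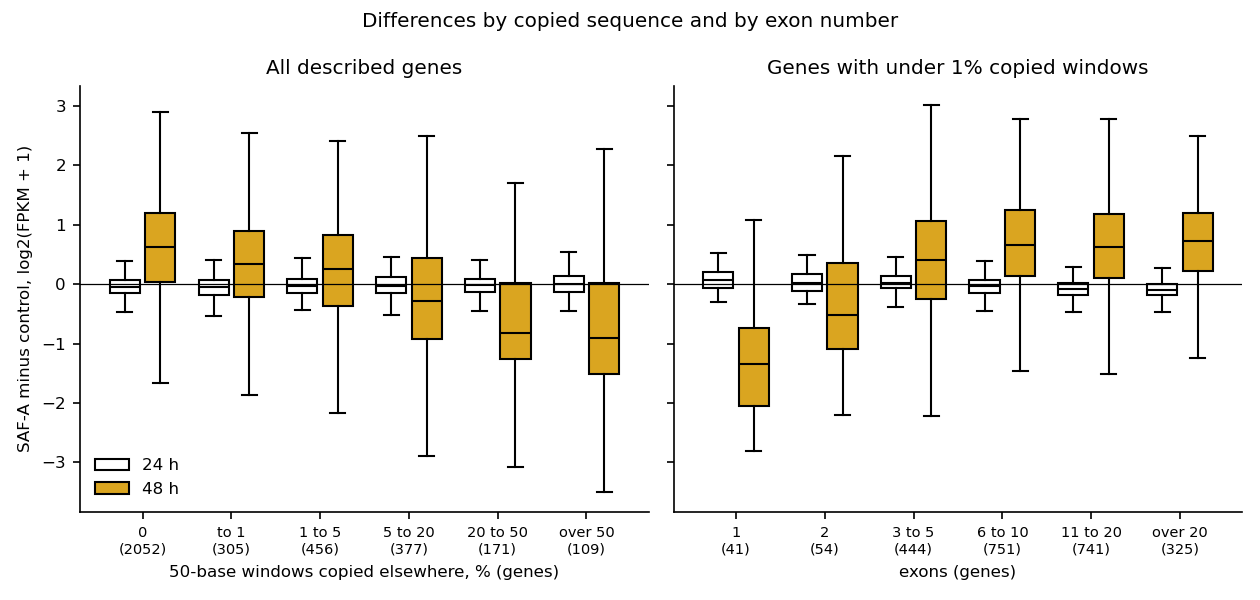
Boxes show the median and quartiles of the log2 difference of described genes, with whiskers to the last value within 1.5 times the box height, at 24 h in white and at 48 h in yellow. On the left genes are grouped by the percentage of copied 50-base windows and on the right, for genes with under 1%, by exon number. The 24 h boxes stay near 0, and on the right their medians run from 0.06 for 1 exon to -0.10 for 21 or more. The 48 h medians fall from 0.63 to -0.90 with copied sequence and rise from -1.34 to 0.73 with exon number.

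The Spearman correlation of the 48 h difference was -0.05 with spliced length, 0.08 with GC content, 0.17 with gene span and -0.12 with 3′ UTR length. For the 24 h difference these were -0.24, -0.14, -0.10 and -0.07. With exon number it was 0.25 at 48 h and -0.30 at 24 h. The sign was thus opposite between the times for GC content, gene span and exon number. Ranked by spliced length and split into 5 classes of equal size, the shortest genes (330 to 1235 nt) had a median of 0.47 and the longest one of 0.38. Among genes with under 1% copied windows the medians of the shortest and longest classes were 0.84 and 0.49. Protein-coding genes had a median of 0.42 (3384 genes) and transcribed pseudogenes one of -0.92 (30 genes).

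Seed matches of the siRNA were counted in 3′ UTRs of 3368 described genes other than HNRNPU. The 528 genes with ATATAAT, the match to the antisense seed, had a median of 0.27 at 48 h, and those without it 0.44. Genes with a site had longer 3′ UTRs, with medians of 2431 and 690.5 nt, and in 5 equal classes of 3′ UTR length, from short to long, the medians with a site (9 to 276 genes a class) were 0.74, 0.77, 0.21, 0.26 and 0.27. Without a site they were 0.56, 0.61, 0.44, 0.17 and 0.30, so the sign of the gap differed between classes. The sense seed match TTCCCAG gave 0.31 with and 0.44 without a site, and the reversed letters TAATATA, added for comparison after the values were seen, 0.37 and 0.43. Lower genes made up 14.02% of those with ATATAAT and 10.1% of those without. For TTCCCAG these shares were 11.3% and 10.6%, and for TAATATA 11.8% and 10.5%. In the 5 classes of 3′ UTR length, lower genes were 11.1%, 9.09%, 15.6%, 15.8% and 13.4% of those with ATATAAT. Without it they were 13.2%, 5.77%, 9.51%, 11.95% and 10.3%. A part of the site in these shares was not tested.

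The 24 h libraries, which share none with the 48 h pair, can be set beside it. Of the 919 genes higher at 48 h, 559 (60.8%) had a positive difference at 24 h, against 40.8% of all described genes, and of the 390 lower genes 269 (69.0%) had a negative one, against 59.2%. The Spearman correlation of both differences over the described genes was 0.31 and Pearson's was 0.35, across genes that are not independent. Called at both times in the same direction were 4 higher genes, ACLY, MAPK6, NEK7 and the unmatched NM_001287487, and 3 lower ones, HNRNPU, RPL21P28 and PCNA-AS1. MAPK6, an atypical MAP kinase, stood at 17.3 and 47.4 FPKM at 24 h, and at 48 h at 9.42 (8.85 to 9.999) and 48.8 (42.4 to 55.2). NEK7 stood at 33.4 (32.3 to 34.5) and 79.0 FPKM at 24 h, and at 48 h at 4.83 (4.41 to 5.25) and 39.1 (33.3 to 44.9). Its log2 difference between the control libraries of 48 h and 24 h was -2.56. The NEK7 interval in SAF-A 48 h overlapped that in control 24 h. RPS29 was called higher at 24 h (498 and 1064 FPKM) and lower at 48 h, at 921 (871 to 971) and 359.7 (258 to 462) FPKM. PCNA-AS1, an antisense transcript of PCNA, stood at 24.3 and 10.7 FPKM at 24 h and at 58.2 (48.7 to 67.7) FPKM in control 48 h, and was listed at 0 with an upper bound of 9.12 FPKM in SAF-A 48 h. Without strand its reads cannot be told from those of PCNA. Among MAPK6, NEK7, RPS29 and PCNA-AS1, which were named after their values were seen, MAPK6 has 25.9% copied windows.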

How the data were processed

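The deposited gene tables give FPKM with 95% interval bounds and a status for each RefSeq transcript, per the file headers; the submitters' processing notes name TopHat2 2.0.10, Bowtie2 2.1.0, Cufflinks 2.2.1, Cuffdiff and the build hg19. The annotation version, strand setting and handling of reads with several alignments are not given in the sources used here. The deposited FPKM values and bounds were summed per gene symbol, and summed bounds are not a joint interval. Estimated reads were computed from the deposited coverage and FPKM with fragments of 200 ± 80 nt. The implied depth was 28083822 to 30701282 mapped reads in 3 libraries and 1216740 in SAF-A 48 h. Differences are log2(FPKM + 1). With 1 library per group no test was possible; calls use a 2-fold difference and separate deposited intervals, which cover estimation error only.

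Members and the 27 gene lists were chosen with earlier results of these data known. Genes named were HNRNPU, the 12 higher and 12 lower with the widest gap between 48 h intervals (at most 3 histones) and, in each list, the 2 most abundant and the 2 with the widest gap. A few genes that the rule names are not reported here. CDK1, HMMR, TOP2A, CTSA, ATP6V0B, CCN2, CDKN1A, MDM2, HNRNPUL1, LMNB1, MALAT1, JUN, RHOB, TERC and other genes given with a log2 difference only were chosen after their values were seen. Copied windows are exact 50-base matches of a gene's transcript elsewhere in GRCh37, 3′ UTRs come from GENCODE 44 on GRCh37, and promoters from RefSeq. Of the alternatives, 14 were planned; the choice of genes by 24 h level and the limit to under 1% copied windows were added after the data were seen, as were the exon classes, the E-box search and the reversed seed. Python 3.11.15, pandas 2.3.3, numpy 2.4.6 and pysam 0.24.0 were used.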

Additional observations from a re-analysis of the deposited data

Results flagged for a closer look

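In 5 gene lists the median difference lay at least 0.1 from 0 on opposite sides at 24 h and 48 h, and the difference between the times was not tested, since each time has 1 library per siRNA. For replication-dependent histones the median log2 difference was 0.16 at 24 h and -2.12 at 48 h. Cytosolic ribosomal protein genes had medians of 0.15 at 24 h and -0.57 at 48 h. For sterol synthesis and uptake the medians were -0.12 and 0.83, for ATF4 targets and tRNA synthetases -0.11 and 0.34, and for glycolysis -0.14 and 0.33. All described genes had medians of -0.04 and 0.41, and on the scale centred on 0.41 the ATF4 and glycolysis medians at 48 h were -0.07 and -0.08.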

How the results depend on the processing

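No paired analysis was possible because each group held 1 library and no test was made. The counts as reported were 919 higher and 390 lower genes with a median log2 difference of 0.41. A minimum mean of 1 FPKM gave 1429 and 1757 with a median of -0.074, and medians of -0.017 for the ATF4 list and -0.15 for the TGF-beta list. A minimum of 50 FPKM gave 504 and 169 with a median of 0.55, and medians of 0.29 for the SR protein list and 0.020 for the long noncoding RNA list. Rescaling to TPM over genes of 300 nt or more gave a median of 0.18, with -0.048 for translation factors and -0.087 for oxidative stress. Centring gave 441 and 633 with a median of 0, and list medians of -0.23 for translation, -0.028 for actin, -0.070 for ATF4, -0.082 for glycolysis, -0.26 for oxidative stress, -0.041 for interferon and -0.10 for NF-kB. A 1.5-fold limit gave 1384 and 620 and a 4-fold limit 135 and 97. Without a minimum length the median was 0.35, and with the longer minimum length tried the SR protein median was 0.0081. Taking the transcript of highest mean per symbol gave 0.48 over all genes, 0.15 for SR proteins and 0.026 for long noncoding RNAs. Choosing genes by 24 h level gave 0.12, with -0.12 for oxidative stress and -0.15 for TGF-beta. Under 1% copied windows left 141 lower genes and a median of 0.59, with 1.27 for ribosomal proteins, 0.29 for SR proteins, 0.48 for chaperones and 0.13 for both the lamina and the chromatin lists. The cause of these changes was not tested. Of the 122 named genes 103 were called, and none of the 103 changed sign in the settings that included it. Of those not called, BUB3, SNRPD2 and ENO1 changed sign on the centred scale, BUB3 and SNRPD2 when rescaled to TPM over genes of 300 nt or more, and BUB3 and FTL against the control 24 h library. Calls of 12 were lost on the centred scale, and against the control 24 h library those of PLK2, TAGLN, VIM and TNIP1 were lost. Depth limits the SAF-A 48 h library, where 24 described genes rested on fewer than 10 reads.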
